A study of Homo sapiens with 3 samples.

Results

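The 9 genes described here encode surface proteins by which B cells contact T cells: CD40, CD80, CD86, CD70, CD58, CD83, ICAM1, CD274 and ICOSLG. They were chosen by name for that role, and all 9 were found among the 15808 genes of the count table. RNA was sequenced from OCI-Ly10, an established human cell line from a diffuse large B cell lymphoma (activated B cell-like subtype), in 3 replicate libraries of cells treated with MZ1 for 6 h. MZ1 is a degrader that brings the BET bromodomain proteins to the von Hippel-Lindau ubiquitin ligase. These libraries form 1 group, and no untreated cells, other line or later time was analysed here, so the values are levels after treatment and do not show what MZ1 changed. Whether the replicates are separate cultures is not stated in the labels. Each p-value therefore covers these libraries alone, and the spread between them may be technical.

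A B cell that presents antigen to a T cell also delivers contact signals. CD80 and CD86 bind CD28 and its inhibitory relative CTLA4, ICOSLG binds ICOS, and CD70 binds CD27. CD40 receives the CD40 ligand of the T cell, CD58 and ICAM1 hold the cells together through CD2 and the integrin LFA-1, and CD274 (PD-L1) restrains the T cell through PD-1. CD83 is an activation marker of B cells and dendritic cells that keeps CD86 and MHC class II molecules at the surface. Loss of CD58 and gain of CD274 are known events in B cell lymphomas, and CD83, CD40, CD80, CD86 and ICAM1 are known to respond to NF-kB.

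The libraries held 5474462, 1441246 and 1314812 counts in replicates 1, 2 and 3, so the precision for a low gene differs between libraries. Levels are given as CPM, counts per 1000000 of the library size scaled by TMM, where 1 count is worth 0.20, 0.629 and 0.767 CPM in replicates 1, 2 and 3. Of the 5 B cell markers MS4A1, CD79A, CD79B, PAX5 and CD22, 5 reached 1 CPM in every library, against 68.0% of all genes. The summed levels of these markers were 1074 to 1864 CPM (PAX5 exons overlap an opposite-strand gene). Of 9 T cell markers 4 were found in the count table, and CD3D, CD3E, CD3G, CD8A and CD28 were not. The 4 found had a summed level of 5.66 to 15.0 CPM, most of it from TRAC at 11.8, 4.40 and 6.14 CPM. CD4 had 2, 1 and 0 counts. Of 8 myeloid and dendritic markers 5 were found in the count table, and CD14, FCER1A and CLEC9A were not. The 5 found had a summed level of 64.1 to 86.6 CPM. MPO led at 24.7 ± 6.22 and CD1C followed at 23.6 ± 4.07 CPM (mean ± SD, n = 3, as for all means below). ITGAM, an integrin chain of macrophages, had 114, 26 and 25 counts, or 19.4 ± 3.23 CPM, while LYZ had 31, 10 and 5 counts and CSF1R, a receptor of macrophages, 10, 3 and 1. Per kb of merged exon, the members CD86, ICAM1 and CD274 had means of 6.51, 5.95 and 4.13 CPM. On that scale MPO had 7.01 and ITGAM 3.42 CPM, near these members, and CD1C lay above them at 16.5. OCI-Ly10 is a cell line, and the source of these marker reads was not tested. Genes that the annotation classes as antisense took 0.251% of the counts of replicate 1 but 2.04% and 2.09% of those of replicates 2 and 3, which sets replicate 1 apart, and the part of this difference in the members' values was not tested. Exons of 42.8% of the annotated genes overlap a gene on the opposite strand.

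The promoters of 3 members are shown because they differ in the letters that NF-kB and interferon-activated factors are known to bind. Each is the 250 bases before a RefSeq transcript start (build GRCh38.p14, plus strand), in lower case with motif matches in capitals. Searched on both strands were the NF-kB consensus of 10 letters, the core of the interferon-stimulated element (GAAA, any 2 bases, GAAA) and TTCNNNGAA (a STAT site), and overlapping matches run together in capitals. CD83 is shown upstream of the second of its RefSeq starts, chr6:14117522-14117771, with the NF-kB consensus in capitals. CD86 is likewise shown upstream of its second start, chr3:122077534-122077783, with the same motif. CD274 is shown at chr9:5450292-5450541, where the first capitals are 2 overlapping matches of the interferon-stimulated element core on the other strand and the second are TTCNNNGAA.
CD83: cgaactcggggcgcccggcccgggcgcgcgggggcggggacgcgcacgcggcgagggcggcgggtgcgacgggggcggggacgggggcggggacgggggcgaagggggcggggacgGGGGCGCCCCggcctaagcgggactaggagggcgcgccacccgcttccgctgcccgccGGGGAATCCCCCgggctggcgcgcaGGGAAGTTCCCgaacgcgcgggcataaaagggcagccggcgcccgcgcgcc
CD86: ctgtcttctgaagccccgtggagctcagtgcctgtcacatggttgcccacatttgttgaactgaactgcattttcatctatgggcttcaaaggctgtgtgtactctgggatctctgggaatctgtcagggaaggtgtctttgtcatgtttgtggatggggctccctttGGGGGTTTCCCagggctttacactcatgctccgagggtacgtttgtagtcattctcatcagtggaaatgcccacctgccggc
CD274: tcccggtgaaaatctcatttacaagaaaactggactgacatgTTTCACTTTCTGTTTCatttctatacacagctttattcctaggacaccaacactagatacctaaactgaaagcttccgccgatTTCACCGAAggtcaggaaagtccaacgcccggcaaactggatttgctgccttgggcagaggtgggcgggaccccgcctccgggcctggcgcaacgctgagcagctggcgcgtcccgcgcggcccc
In the CD83 promoter the consensus matched at 3 places, GGGGCGCCCC, GGGGAATCCCCC and GGGAAGTTCCC, which begin 134, 76 and 51 bases before the RefSeq start. One GENCODE transcript of CD83 begins at 14117641, inside this stretch, and the window at the other CD83 start, like that at the other CD86 start, held no match. In CD86 the match GGGGGTTTCCC begins 82 bases before the start. The ICAM1 window held 1 match of TTCNNNGAA (TTCCGGGAA, 75 bases before the start), and those of CD80, CD58 and ICOSLG held none. The ICAM1 window also holds tggaaattcc, which differs from the NF-kB consensus in its first letter alone. Such near matches were not counted, so a window without a match may still hold a variant site. RefSeq windows matched 7 of the 9 members, and CD40 and CD70 were not searched. Over all 35116 windows of 300 bases (the 250 before a start and the 50 after it), 11.3% held the NF-kB consensus, 3.57% the interferon-stimulated element core and 7.66% TTCNNNGAA, so matches of these letters are not rare and describe sequence only.

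**Figure D1:**
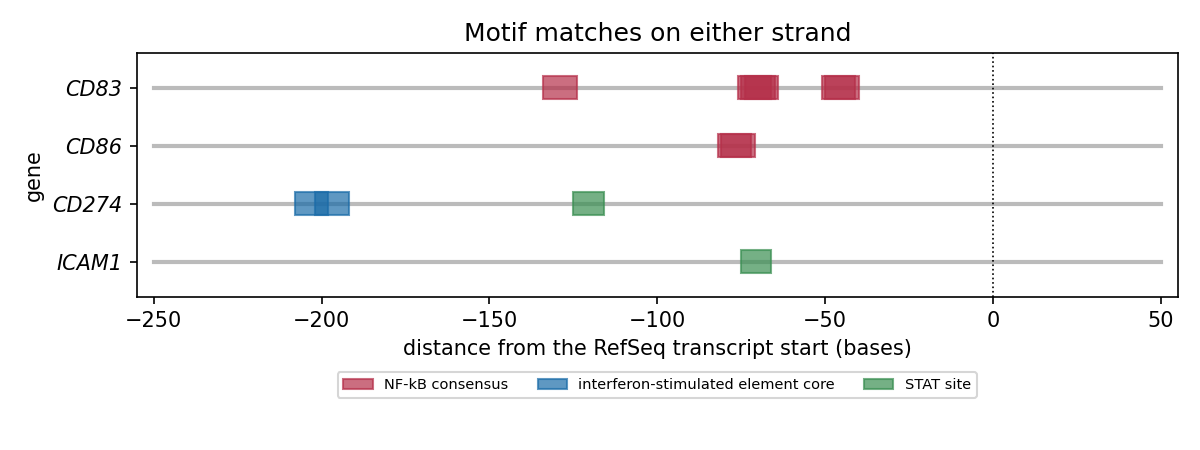
Positions of motif matches on either strand in RefSeq windows, in bases from the transcript start (dotted line), one row per gene. NF-kB consensus matches (red) lie in the CD83 and CD86 windows, matches of the interferon-stimulated element core (blue) in that of CD274, and STAT site matches (green) in those of CD274 and ICAM1. Near matches, such as that to the NF-kB consensus in ICAM1, are not drawn.

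CD83 was by far the most abundant of the 9 genes. CD83 (ENSG00000112149.8, GRCh38 chromosome 6, 14117256 to 14136918, plus strand) had 984, 727 and 622 CPM in replicates 1, 2 and 3, from 4923, 1157 and 811 counts. All 3 libraries were high, with replicate 1 the highest, and no other member reached the lowest CD83 value in any library. The mean was 778 ± 186 CPM. CD83 took 82.2%, 87.3% and 81.8% of the reads of the 9 genes together, with exact Clopper-Pearson 95% intervals of 81.2 to 83.2%, 85.4 to 89.1% and 79.3 to 84.2%, which cover counting error only. Per kb of merged exon, the scale on which genes are compared below, CD83 had 309 ± 74.1 CPM and by its mean ranked 118 among 15668 genes with a known length. The 9 genes together took 0.109%, 0.0919% and 0.0754% of the counts of replicates 1, 2 and 3, and without CD83 the other 8 summed to 213, 106 and 138 CPM.

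**Figure D2:**
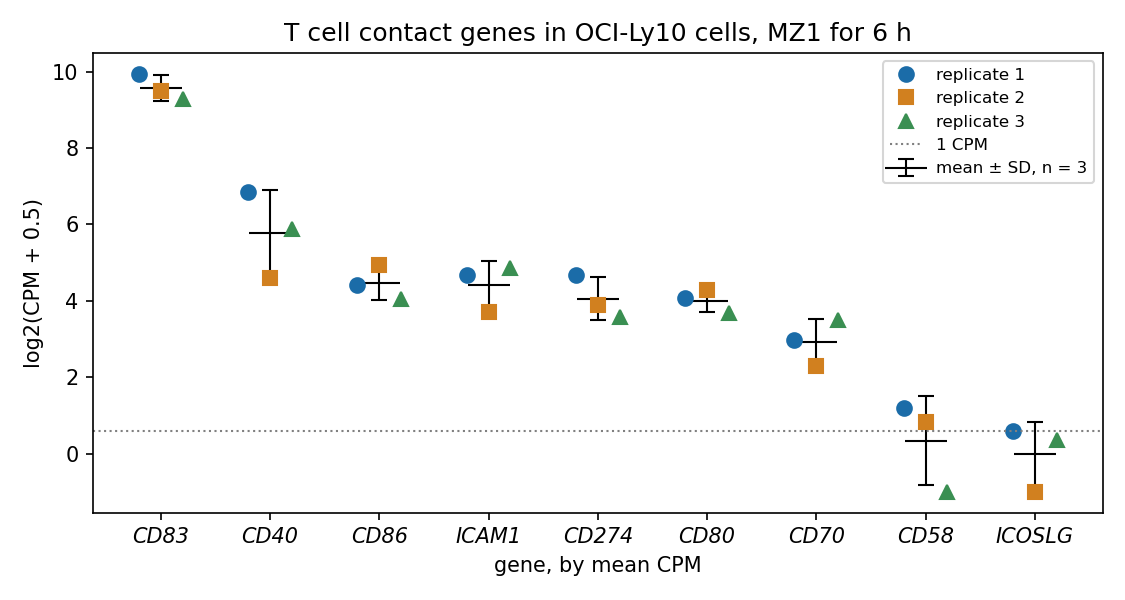
Level of each of the 9 genes as log2(CPM + 0.5) in replicates 1 (circles), 2 (squares) and 3 (triangles), with mean ± SD of the log2 values (n = 3) and 1 CPM as a dotted line. CD83 lies above all others, CD40 is spread widest among the genes with counts in every library, and CD58 and ICOSLG lie around 1 CPM or below.

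CD40, the receptor through which T cells activate B cells (ENSG00000101017.12, chromosome 20, 46118272 to 46129863, plus strand), was the second most abundant member and the least even of those with counts in every library. It had 115, 23.9 and 58.3 CPM in replicates 1, 2 and 3, from 576, 38 and 76 counts. Replicate 1 was 4.82-fold above replicate 2, and replicate 3 lay between them. The mean was 65.8 ± 46.1 CPM, and it was 42.4 CPM without replicate 1 and 82.5 without replicate 2. CD70, the ligand of CD27 and a member of the TNF superfamily (ENSG00000125726.9, chromosome 19, 6583183 to 6604103, minus strand), had 7.40, 4.40 and 10.7 CPM, from 37, 7 and 14 counts. CD70 was lowest in replicate 2, as CD40 was, but highest in replicate 3. Per kb, the log2 ratio of CD40 to CD70 was 2.14 ± 0.88, above 0 in each of the 3 libraries. An exact permutation test by sign flips (two-sided) gave p = 0.25 for this and each of the other pairs, which is the lowest value that 3 libraries can reach, and 0.25 after adjustment over 5 pairs.

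The B7 ligands of CD28 were both present at similar levels. CD86 (ENSG00000114013.14, chromosome 3, 122055366 to 122121139, plus strand) had 20.8, 30.2 and 16.1 CPM in replicates 1, 2 and 3, from 104, 48 and 21 counts. CD80 (ENSG00000121594.10, chromosome 3, 119524293 to 119559602, minus strand) had 16.2, 18.9 and 12.3 CPM, from 81, 30 and 16 counts. Both were highest in replicate 2 and lowest in replicate 3. Means were 22.4 ± 7.16 CPM for CD86 and 15.8 ± 3.31 CPM for CD80. Per kb, the log2 ratio of CD86 to CD80 was 0.36 ± 0.17, with CD86 higher in 3 of 3 libraries (exact permutation p = 0.25). CD80 shares 798 bases of exon with TIMMDC1, a gene of mitochondrial complex I assembly on the opposite strand, which had 53.0, 38.3 and 53.7 CPM. Without a stated strand setting of the counting, reads of the shared stretch cannot be told apart.

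ICOSLG, the B7 ligand of ICOS (ENSG00000160223.15, chromosome 21, 44217014 to 44240966, minus strand), was the lowest member. It had 5, 0 and 1 counts, or 1.00, 0 and 0.767 CPM in replicates 1, 2 and 3, where a count of 0 in replicate 2 allows up to 1.89 CPM (3 counts). In replicate 3, which had 1 count, a count of 0 would allow up to 2.30 CPM. A level of 1 CPM can therefore leave no count in replicates 2 and 3 at this depth. ICOSLG has a copy elsewhere on chromosome 21, FP565260.3 (ENSG00000277117.3, 5022493 to 5040666, plus strand), which had 0 counts in all 3 libraries. Of the 9422 windows of 50 bases in ICOSLG transcripts, 33.7% occur identically in FP565260.3 transcripts, and the handling of reads from such stretches was not given in the sources used here. Among the remaining members, CD80 and ICAM1 shared 23.4% and 21.2% of such windows with another gene, mainly the genes that overlap them on the opposite strand, and the other 6 shared none. Per kb, the log2 ratio of ICOSLG to CD86 was -5.94 ± 1.25 at a pseudocount of 0.5 CPM and -4.66 at 2 CPM, with ICOSLG lower in 3 of 3 libraries (exact permutation p = 0.25).

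CD274, the ligand of PD-1 (ENSG00000120217.12, chromosome 9, 5450503 to 5470566, plus strand), had 25.0, 14.5 and 11.5 CPM in replicates 1, 2 and 3, from 125, 23 and 15 counts. Replicate 1 was the highest, and replicates 2 and 3 lay close together. The mean was 17.0 ± 7.09 CPM, or 4.13 ± 1.73 per kb. Per kb, its values of 6.08, 3.52 and 2.80 overlapped those of CD80 and CD86.

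Of the adhesion genes, ICAM1 was measured in every library and CD58 was barely detected. ICAM1 (ENSG00000090339.7, chromosome 19, 10270835 to 10286615, plus strand) had 25.2, 12.6 and 28.4 CPM in replicates 1, 2 and 3, from 126, 20 and 37 counts, with replicate 2 the lowest. The mean was 22.0 ± 8.36 CPM. The antisense genes AC011511.5 and AC011511.2 overlap its exons, the former over 815 bases with 1, 5 and 4 counts and the latter over 61 bases with 0, 0 and 1 counts. ICAM3, another ligand of LFA-1, had 75.0, 13.2 and 65.2 CPM, and per kb the log2 ratio of ICAM1 to ICAM3 was -1.27 ± 0.77, with ICAM1 lower in 3 of 3 libraries (exact permutation p = 0.25). ICAM3 exons overlap an opposite-strand gene. CD58, the ligand of CD2 (ENSG00000116815.14, chromosome 1, 116514535 to 116571039, minus strand), had 9, 2 and 0 counts, or 1.80, 1.26 and 0 CPM. The count of 0 in replicate 3 allows up to 2.30 CPM, so the libraries are not distinguishable at this depth. CD48, a relative of CD58 in the same receptor family, had 262, 8 and 35 counts, or 52.4, 5.03 and 26.8 CPM. Per kb, the log2 ratio of CD58 to CD48 was -3.11 ± 2.11, with CD58 lower in 3 of 3 libraries, and leaving out 1 replicate at a time it was -4.23 (without replicate 2) to -2.21 (without replicate 3). The count of 0 makes its size depend on the pseudocount, with -4.05 at 0.1 CPM and -2.06 at 2 CPM. The exact permutation p was 0.25, and CD48 exons overlap an opposite-strand gene.

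Per kb of exon, the order of mean levels was CD83 (309 CPM), CD40 (26.0), CD86 (6.51), ICAM1 (5.95), CD80 (4.93), CD70 (4.90), CD274 (4.13), CD58 (0.571) and ICOSLG (0.0630). CD83 lay above CD40, CD40 above CD86, and CD274 above CD58 in 3 of 3 libraries with no overlap of their ranges. The mean of CD83 was 11.9-fold that of CD40, and that of CD40 was 4.00-fold that of CD86. The 5 genes from CD86 to CD274 had overlapping ranges at each step, and each was above the next in only 1 or 2 of 3 libraries, so their order is within the spread. CD58 and ICOSLG also overlapped, with CD58 higher in 2 of 3 libraries. At least 1 CPM in every library was reached by 7 of the 9 genes, against 68.0% of all 15808 genes, a share close to that background. CD58 reached it in 2 libraries and ICOSLG in none, at 0.9997 CPM in replicate 1.

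**Figure D3:**
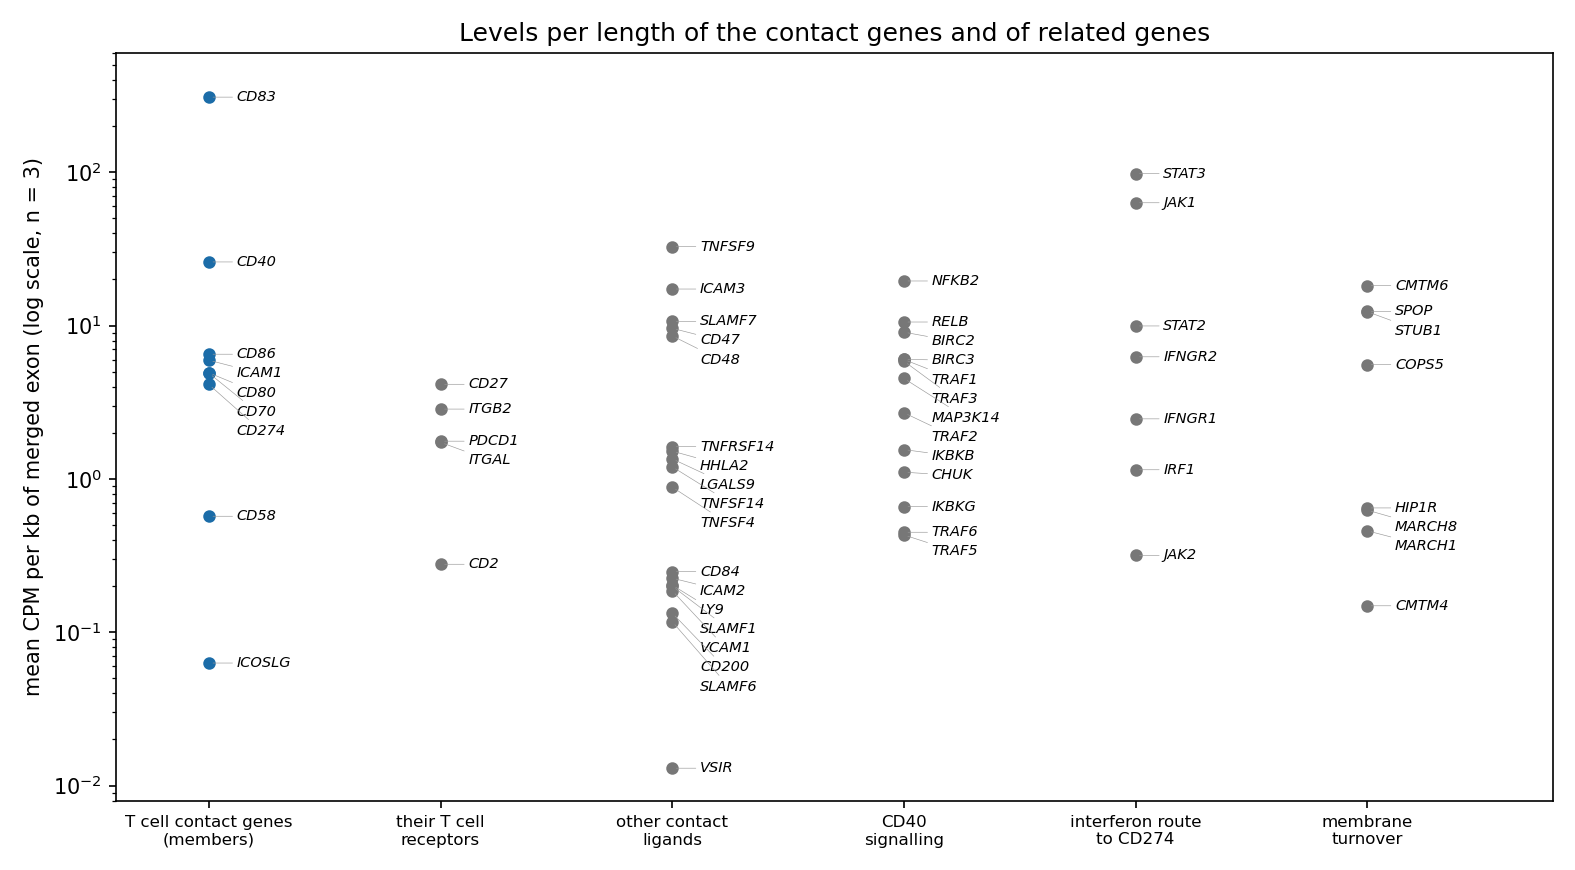
Mean CPM per kb of merged exon (log axis, n = 3) of the 9 contact genes (blue) and of 5 lists of related genes (grey), one point per gene. CD83 lies above every gene of the other lists, and the members span from 309 to 0.0630.

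Variation between libraries was tested for each gene with a chi-square test of its 3 counts against equal expression, over the 10016 genes whose counts averaged 10 or more and with Benjamini-Hochberg adjustment. The test compares libraries, not conditions, and sets their spread against counting error alone. It takes reads without molecular identifiers as independent molecules, so its p-values are too small where reads repeat a molecule. Of the 7 members tested 5 varied at an adjusted threshold of 0.05, against 67.2% of all genes tested, so the members' share is near the background. The adjusted p was 1.05e-43 for CD83, 6.37e-28 for CD40, 0.00324 for CD274, 0.0111 for ICAM1 and 0.0408 for CD86. It was 0.180 for CD70 and 0.431 for CD80, whose libraries were not distinguishable at this depth. CD83 has the largest counts, so its test detects smaller differences than that of CD40: its highest library was 1.58-fold its lowest. CD58 and ICOSLG had too few counts for this test, and an exact multinomial test, added after the data were seen, gave unadjusted p = 0.410 and 0.614.

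The libraries also differed by GC content, and the members were set against genes of similar GC. From replicate 1 to replicate 2 the median log2 difference of all genes of at least 10 CPM fell along 8 bins of GC content, from 0.32 in the most AT-rich to -1.37 in the most GC-rich. From replicate 1 to replicate 3 the bin medians ran only from 0.09 to -0.25, so the trend lay mainly in replicate 2. ICAM1 (56.9% GC) differed by -0.98 where its bin had a median of -0.78. CD80 (42.2%) differed by 0.21, as its bin did (0.21). CD40 (50.3%) differed by -2.25 where its bin had -0.34, and CD274 (40.9%) by -0.77 where its bin had 0.27. CD70 (60.0%), with 7 counts in replicate 2, differed by -0.69 where its bin had -1.37. CD83 (47.7%) differed by -0.44 where its bin had -0.11, and CD86 (43.4%) by 0.53 where its bin had 0.21. With the median difference of each bin removed, 3 of 7 members varied between libraries, namely CD83, CD40 and CD274, and CD86 (adjusted p = 0.158) and ICAM1 (0.257) did not pass, against 61.0% of all genes. CD274 did not pass without replicate 1 (adjusted p = 0.526), nor did ICAM1 and CD86 without replicate 2 (0.633 and 0.400). With fewer libraries the share of all genes that varied also fell, to 33.8% without replicate 1 and 45.2% without replicate 2.

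**Figure D4:**
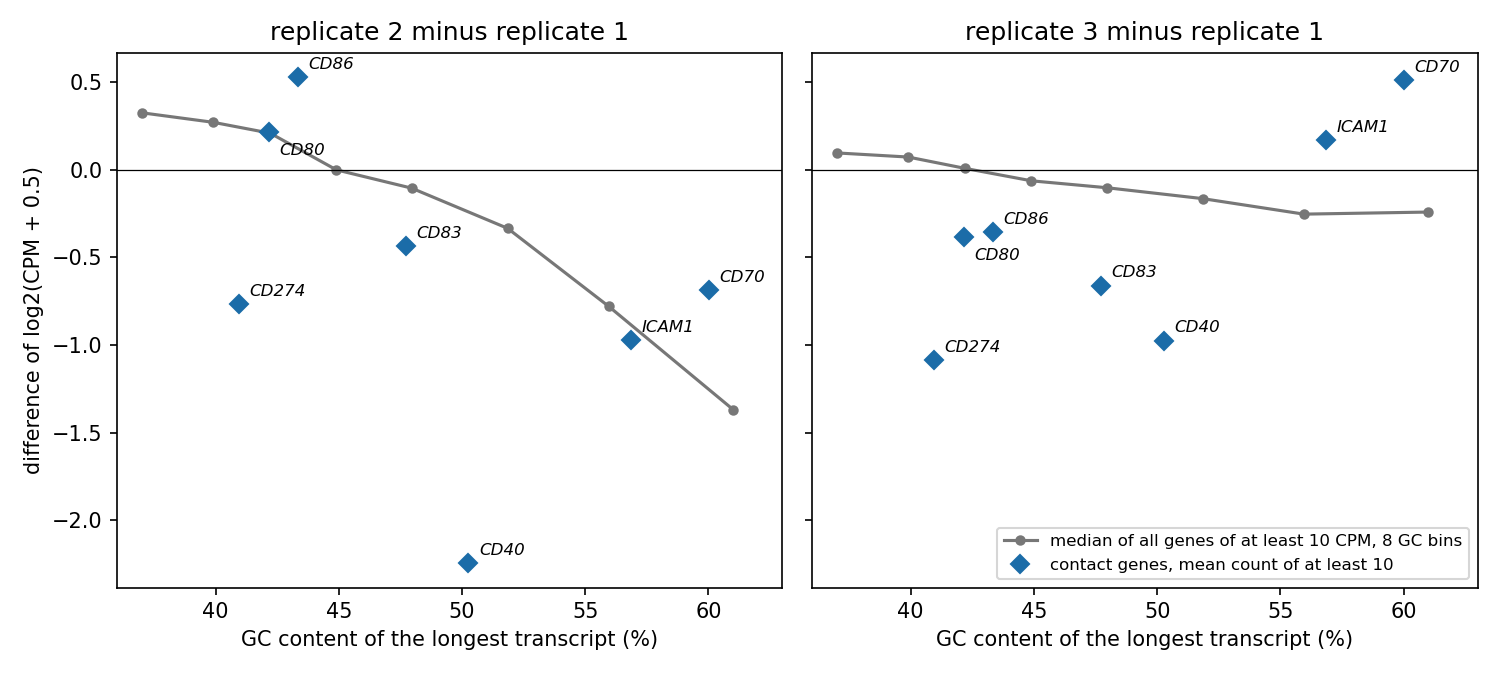
Difference of log2(CPM + 0.5) between libraries against the GC content of the longest transcript, for the 7 members whose counts averaged 10 or more (diamonds) and as medians of all genes of at least 10 CPM in 8 GC bins (grey line). CD83, CD40 and CD274 lie below the line in both panels, CD40 and CD274 by 1.91 and 1.04 on the left, while CD80 and ICAM1 lie near it on the left.

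Among the members of at least 10 CPM, 3 of 6 had their highest value in replicate 1 (CD83, CD40 and CD274), against 43.1% of genes at that level, and 2 of 6 (CD40 and ICAM1) were lowest in replicate 2, against 40.5%. The other 4 (CD83, CD86, CD80 and CD274) were lowest in replicate 3, against 25.5%. The closest profiles over the 3 libraries were sought among 52 other genes of the members and lists, as the smallest maximum difference of centred log2 values. The closest to CD86 was CD80 (0.20), and to CD274 it was TRAF3 (0.18). For ICAM1 it was COPS5 (0.09), for CD70 TRAF2 (0.13), for CD83 MPO (0.19), for CD80 LYZ (0.15) and for CD40 HHLA2 (0.39). COPS5 and LYZ exons overlap opposite-strand genes. With 3 libraries of 1 group such likeness is a description only.

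The T cell receptors of the members had summed levels of 76.6, 16.3 and 29.2 CPM in replicates 1, 2 and 3. Of 9 listed partners 5 were found in the count table, and CD28, CTLA4, ICOS and CD40LG were not. CD27, the receptor of CD70 that B cells also carry, had 1.00, 5.03 and 11.5 CPM, from 5, 8 and 15 counts, and was highest in replicate 3 as CD70 was. CD2, the partner of CD58, had 7, 0 and 0 counts. PDCD1, which encodes PD-1, had 8.40, 1.26 and 1.53 CPM, from 42, 2 and 2 counts. ITGAL and ITGB2, the chains of LFA-1 that B cells also carry, had 19.6, 5.66 and 8.44 CPM and 46.2, 4.40 and 7.67 CPM. PDCD1, ITGAL and ITGB2 were each highest in replicate 1, and all 3 varied by the chi-square test (adjusted p = 9.30e-04, 1.09e-04 and 1.96e-20). Of all genes tested 67.2% varied, and 43.1% of genes of at least 10 CPM were highest in replicate 1. CD27, ITGAL and ITGB2 have exons that overlap opposite-strand genes.

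Other ligands by which B cells contact T cells spanned 32.8 to 0.0130 CPM per kb, the lowest from a single count. Of 24 listed genes 18 were found in the count table. Of these 10 reached 1 CPM in every library, against 68.0% of all genes. TNFSF9, the ligand of 4-1BB, had the highest level per kb at 32.8 ± 13.0 CPM, with 35.8, 49.7 and 78.2 CPM in replicates 1, 2 and 3. It was lowest in replicate 1, where CD83 and CD40 were highest. ICAM3 followed at 17.3 ± 11.3 and SLAMF7 at 10.7 ± 2.51 CPM per kb, and VSIR, an inhibitory relative of CD274, was the lowest with 1, 0 and 0 counts. All 9 tested genes of this list varied between libraries, against the same 67.2%.

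Genes that carry the CD40 signal were all analysed, and 11 of 13 reached 1 CPM in every library, against 68.0% of all genes. NFKB2 and RELB, the subunits of the alternative NF-kB pathway, had 19.6 ± 3.50 and 10.6 ± 4.30 CPM per kb, and BIRC2, a ubiquitin ligase that restrains the pathway, 9.07 ± 2.03. TRAF5, an adaptor, was the lowest at 0.432 ± 0.377. RELB had 44.2, 18.2 and 33.8 CPM in replicates 1, 2 and 3, the order of CD40. RELB (65.4% GC) lies in the most GC-rich bin, whose median log2 difference from replicate 1 to replicate 2 was -1.37. The part of GC content in its order was not tested. NFKB2 had 72.2, 87.4 and 104 CPM and was highest in replicate 3. In this list 8 of 11 tested genes varied, near the 67.2% of all genes tested.

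Of the genes by which interferon raises CD274, 7 of 7 were analysed and 6 reached 1 CPM in every library. The share of all genes that did so was 68.0%. STAT3 had 98.1 ± 31.3, JAK1 63.3 ± 12.9 and STAT2 9.96 ± 1.91 CPM per kb. JAK2, a neighbour of CD274 on chromosome 9, was the lowest at 0.318 ± 0.168, from 13, 4 and 1 counts. STAT3 had 1162, 616 and 816 CPM in replicates 1, 2 and 3 and was highest in replicate 1, where CD274 was also highest. STAT3 was lowest in replicate 2, and CD274 in replicate 3. Of the 7 genes 5 were highest in replicate 1. Among those of at least 10 CPM it was 4 of 4, against 43.1% of all genes at that level. In this list 4 of 6 tested genes varied, close to the 67.2% of all genes tested. JAK1 exons overlap an opposite-strand gene.

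Genes known to control how long CD274, CD86 and CD83 stay at the membrane were led by CMTM6, which keeps CD274 from degradation, at 18.3 ± 5.50 CPM per kb. SPOP, a ligase adaptor, had 12.4 ± 6.40, the ligase STUB1 12.3 ± 6.48 and CMTM4, a relative of CMTM6, the lowest level at 0.149 ± 0.195 CPM per kb. CMTM6 had 58.6, 76.7 and 107 CPM in replicates 1, 2 and 3, the reverse of the order of CD274. In this list 6 of 7 tested genes varied (67.2% of all genes tested), and 6 of 8 reached 1 CPM in every library (68.0% of all genes). CMTM6 and STUB1 exons overlap opposite-strand genes.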

How the data were processed

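Total RNA of 3 libraries in 1 labelled group was sequenced after Trizol extraction and an Illumina TruSeq preparation, per the labels' protocols. The submitters' processing notes name STAR, edgeR and hg38. Versions, counter, strand setting and annotation were not given in the sources used here. With 1 group, edgeR had no contrast to test. Raw counts per gene were used as deposited, with TMM factors of 0.914, 1.10 and 0.991 (edgeR 4.0.16 in R 4.3.3). The authors' deposited log2 CPM, an alternative, have an offset of 0.452 CPM and library constants of 0.663 to 0.801 times the column totals, as checked against the counts.

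GENCODE release 29 (GRCh38) gave symbols, exon lengths, GC content and overlaps, by ID without version for 15668 of 15808 genes. Log2 values use a pseudocount of 0.5 CPM, so differences of low genes are understated. The members and lists were chosen with earlier results of these data known. Named are the 9 members, their receptors, pairs, overlapping genes, copies and closest profiles, the 3 highest and the lowest gene of each pathway list by mean CPM per kb, and single genes of the marker lists, chosen after their values were seen. One gene of the B cell marker list and 1 of the interferon list are not reported here and were left out of the counts and sums. Alternatives included size factors of DESeq2 1.42.0. Intervals, floors and chi-square p-values cover counting error only, because these reads carry no molecular identifiers and may repeat a molecule.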

Additional observations from a re-analysis of the deposited data

How the results depend on the processing

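Results kept their direction under DESeq2 size factors, column totals and other pseudocounts and lengths. Means over the deposited log2 values, whose library constants are smaller, were higher for all 9 members, among them CD40 (88.6 CPM), ICAM1 (29.4) and CD274 (23.3). The rise exceeded 1 SD for CD80 (21.7 CPM), CD86 (31.0 CPM) and CD83 (1065 CPM). Leaving out 1 replicate at a time, mean levels were 708 to 859 CPM for CD83, 42.4 to 82.5 for CD40, 17.6 to 25.6 for CD86, 19.0 to 25.5 for ICAM1, 13.6 to 19.8 for CD274, 13.5 to 17.6 for CD80, 5.92 to 8.63 for CD70, 0.679 to 1.53 for CD58 and 0.388 to 0.841 for ICOSLG. Log2 ratios per kb ran from 0.26 to 0.42 for CD86 to CD80, 1.63 to 2.40 for CD40 to CD70, -1.70 to -0.96 for ICAM1 to ICAM3, -4.23 to -2.21 for CD58 to CD48 and -6.33 to -5.19 for ICOSLG to CD86. The tally of members of at least 1 CPM in every library was 7 to 8, and 6 at a threshold of 5 CPM. The share of all genes was computed only at 1 CPM over the 3 libraries (68.0%). The tallies at other settings therefore cannot be set against a background. The tally of members that varied between libraries was 3 to 4 with 1 replicate left out, 3 without replicate 2 and 3 with GC bin differences removed, against 5. The share of all genes tested that varied fell too, from 67.2% to 33.8%, 45.2% and 56.2% without replicates 1, 2 and 3 and to 61.0% with GC bins removed. The ratio of CD58 to CD48 was -4.05 at a pseudocount of 0.1 CPM and -2.06 at 2 CPM. ICAM1 missed the threshold with column totals (adjusted p = 0.0507), and CD86 missed it without replicate 3 (0.0557) and with no filter on counts (0.0522). An exact multinomial test, added after the data were seen, left the calls of CD40, CD86, ICAM1, CD274, CD80 and CD70 on the same side. The planned pair of CD274 with PDCD1LG2 and the comparison of protein sequences were not run. No paired analysis was possible because the libraries form 1 group. CD58, ICOSLG and CD70 are limited by depth.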
